A study of Mus musculus with 22 samples.

Results

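AP-1 is a family of dimeric transcription factors, and its genes were followed here through all their probe sets on the arrays of this series. The members are the Fos genes (Fos, Fosb, Fosl1, Fosl2), the Jun genes (Jun, Junb, Jund), and Atf3 and Batf. They were chosen by gene symbol, and 13 of the 45101 probe sets on the array, for 9 of the 18193 genes with a probe set of their own, carried these symbols. Where a gene has several probe sets, the set with the highest mean over all arrays represents it, and the other sets are given too.

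Gene expression was measured on 22 Affymetrix arrays of mouse RNA. The sorted cells came from A2C12, a lung tumour line from a mouse with c-myc and c-raf transgenes on a C57BL/6 background. Both cell groups were stained with Hoechst 33342, in the presence or absence of reserpine, which blocks dye efflux, and sorted for the side population (SP), the cells that pump the dye out. Untreated SP cells (n = 3) had no antibody, and treated SP cells (n = 3) had 100 µg/ml of a monoclonal antibody against mouse EpCAM for 48 h before the sort. Lung tissue was from C57BL/6 mice without the transgenes, with 8 arrays labelled male lung and 8 labelled female lung, and the labels give no age. All 6 cell samples are preparations of a single line carrying both transgenes, so their spread does not measure spread between tumours. Unsorted cells of the line were not analysed here, so a feature of the line and a feature of its side population cannot be told apart. Hoechst staining (5 µg/ml for 90 min) and sorting were done on the cells only. In comparisons with lung, this handling therefore cannot be told apart from the kind of cell. The labels call the samples biological replicates but do not say that cell preparations were independent cultures, so p-values may measure a partly technical spread.

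Fos and Jun proteins share a basic DNA-binding region and a leucine zipper, the bZIP domain, through which they pair. Jun proteins bind DNA as dimers with each other or with a Fos protein, while Fos proteins need a Jun partner, and the pairs bind short sites in target genes. Fos, Fosb, Fosl1, Jun and Junb are early response genes that growth factor and stress kinases such as ERK and JNK switch on. Fosl1 is known as a target of sustained RAS, RAF and ERK signalling. Atf3 is a stress-induced member, and Batf works chiefly in lymphocytes, where it pairs with Jun proteins beside IRF factors.

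RefSeq promoters (build GRCm38.p6) were matched for 8 of the 9 members, all except Fosl1. The 250 bases before the start were searched on both strands. The half-site TGACG of the cAMP response element, to which ATF and CREB proteins bind, was in 5 of the 8 (Fos, Fosb, Junb, Atf3, Batf). Of 32851 promoters in the table, 17.8% held these letters in the same window. The Jun promoter alone among the 8 held TGACATCA, an ATF and AP-1 type site, which 2.93% of all promoters held. The TATA box TATAAA was found in 1 member, Fos, against 12.4% of all. CCAAT was found in 2 members, Jun and Junb, against 33.8%. The AP-1 site TGANTCA, the full element TGACGTCA (which would also count as a TGACG match) and the CArG box of serum response factor were in 0 of the 8 windows, against 6.75%, 1.55% and 1.47% of all. A match describes letters and no measured binding, and no match says only that the letters are not in this window.

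The 130 bases before the start are shown for the 6 members in which TGACG or TGACATCA was found, 5′ to 3′ on the gene's strand. Capitals mark TGACG on either strand, TGACATCA and TATAAA. The windows are chr12:85473760-85473889 (plus strand) for Fos, chr7:19310046-19310175 (minus) for Fosb, chr8:84978749-84978878 (minus) for Junb, chr4:95052223-95052352 (minus) for Jun, chr1:191183334-191183463 (minus) for Atf3 and chr12:85686590-85686719 (plus) for Batf. The Fosb window overlaps the 5′ part of the gene as annotated, because the start of this entry lies inside it.
Fos: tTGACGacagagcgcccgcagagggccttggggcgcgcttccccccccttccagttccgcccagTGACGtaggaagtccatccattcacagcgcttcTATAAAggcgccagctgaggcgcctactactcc
Fosb: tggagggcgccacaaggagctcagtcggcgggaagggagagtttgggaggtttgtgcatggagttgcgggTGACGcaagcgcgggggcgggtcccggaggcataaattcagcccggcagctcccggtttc
Junb: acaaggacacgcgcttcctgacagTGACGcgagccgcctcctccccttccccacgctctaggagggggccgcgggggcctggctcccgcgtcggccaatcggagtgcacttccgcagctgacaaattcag
Jun: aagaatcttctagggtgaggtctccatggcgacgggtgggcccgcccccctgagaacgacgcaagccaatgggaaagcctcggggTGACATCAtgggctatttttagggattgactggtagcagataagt
Atf3: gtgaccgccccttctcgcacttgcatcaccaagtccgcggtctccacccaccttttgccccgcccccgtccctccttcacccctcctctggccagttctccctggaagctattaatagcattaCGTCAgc
Batf: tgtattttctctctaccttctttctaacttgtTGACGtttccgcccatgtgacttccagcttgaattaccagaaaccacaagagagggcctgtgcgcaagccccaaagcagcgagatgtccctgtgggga

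Counted from the start, TGACG began at -129 and -66 in Fos and TATAAA at -33. TGACG began at -60 in Fosb, -106 in Junb, -98 in Batf and, on the opposite strand, at -7 in Atf3, where the capitals read CGTCA. TGACATCA began at -45 in Jun. TGACG was in members called higher in the cells (Fosb and Atf3), in the member called lower (Batf), in Junb, called higher in treated cells only, and in Fos, called in neither. Fosl1, also called higher in the cells, had no promoter to search.

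The deposited values are PLIER intensities on a linear scale, and a log2 change here is a difference of log2(intensity + 16), quantile normalized over the 22 arrays. The added 16 lowers the change of dim probe sets. A probe set was tested if it lay above its array's 40th percentile on at least 3 compared arrays, and was called at a limma adjusted p under 0.05, with at least a 2-fold change for cells against lung. That comparison used the mean of male and female lung. The median change over all 32533 probe sets tested in untreated cells against lung was 0.145, which turned to -0.038 without normalization and 0.232 with median centring, so changes of that size depend on the scaling. The called sets were 6554 higher and 6390 lower, against 5055 and 7485 without normalization and 7314 and 5937 with median centring. The arrays labelled male 3 and male 4 had Xist at 1512 to 1583 and Uty at 8.27 to 9.46, both within the ranges of female lung and far from the other 6 male arrays (Xist 12.7 to 24.0, Uty 722 to 1253). All 16 lung arrays were kept under their labels, and values without these arrays are given where they matter. Epcam, the target of the antibody and an epithelial marker, read 0.0752 to 11.1 in the cells and 644 to 1617 in lung. The arrays labelled male 3 and 4 also stood apart here, at 1390 to 1617. The other 6 male arrays read 644 to 902 and female lung 693 to 850. Alveolar type 2 markers summed to 286 to 386 in cells against 31537 to 46151 in lung, with 3 of 5 under the 40th percentile on every cell array, and fibroblast markers to 6541 to 11459 against 12062 to 17128, with 0 of 5 under it. The control probe sets dap and ThrX-3 gave 438 to 761 and 7303 to 11789 in cells, and 3.70 or less and 48.4 to 94.7 in lung. Cell and lung arrays thus also differ in these controls, and their part in the comparisons with lung was not tested.

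Untreated SP cells exceeded lung in Fosl1, Fosb and Atf3 and had less Batf. Fos and Fosl2 did not pass on their representative sets, Jund was lower by less than 2-fold, Junb was higher by just under 2-fold, and the 2 Jun probe sets disagreed. Of the 12 member probe sets tested, 4 were called higher and 2 lower, where 20.1% of all probe sets were called higher and 19.6% lower. Counted by representative sets, 3 of 9 genes were higher and 1 lower, where 17.8% of all genes were higher and 23.8% lower. The median change of the 9 genes was -0.083, beside 0.011 over all genes. The 3 genes that rose did so by at least 5.52-fold on this scale, the value for Atf3. In bulk RNA, fewer cells of a type and less RNA per cell cannot be told apart.

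**Figure D1:**
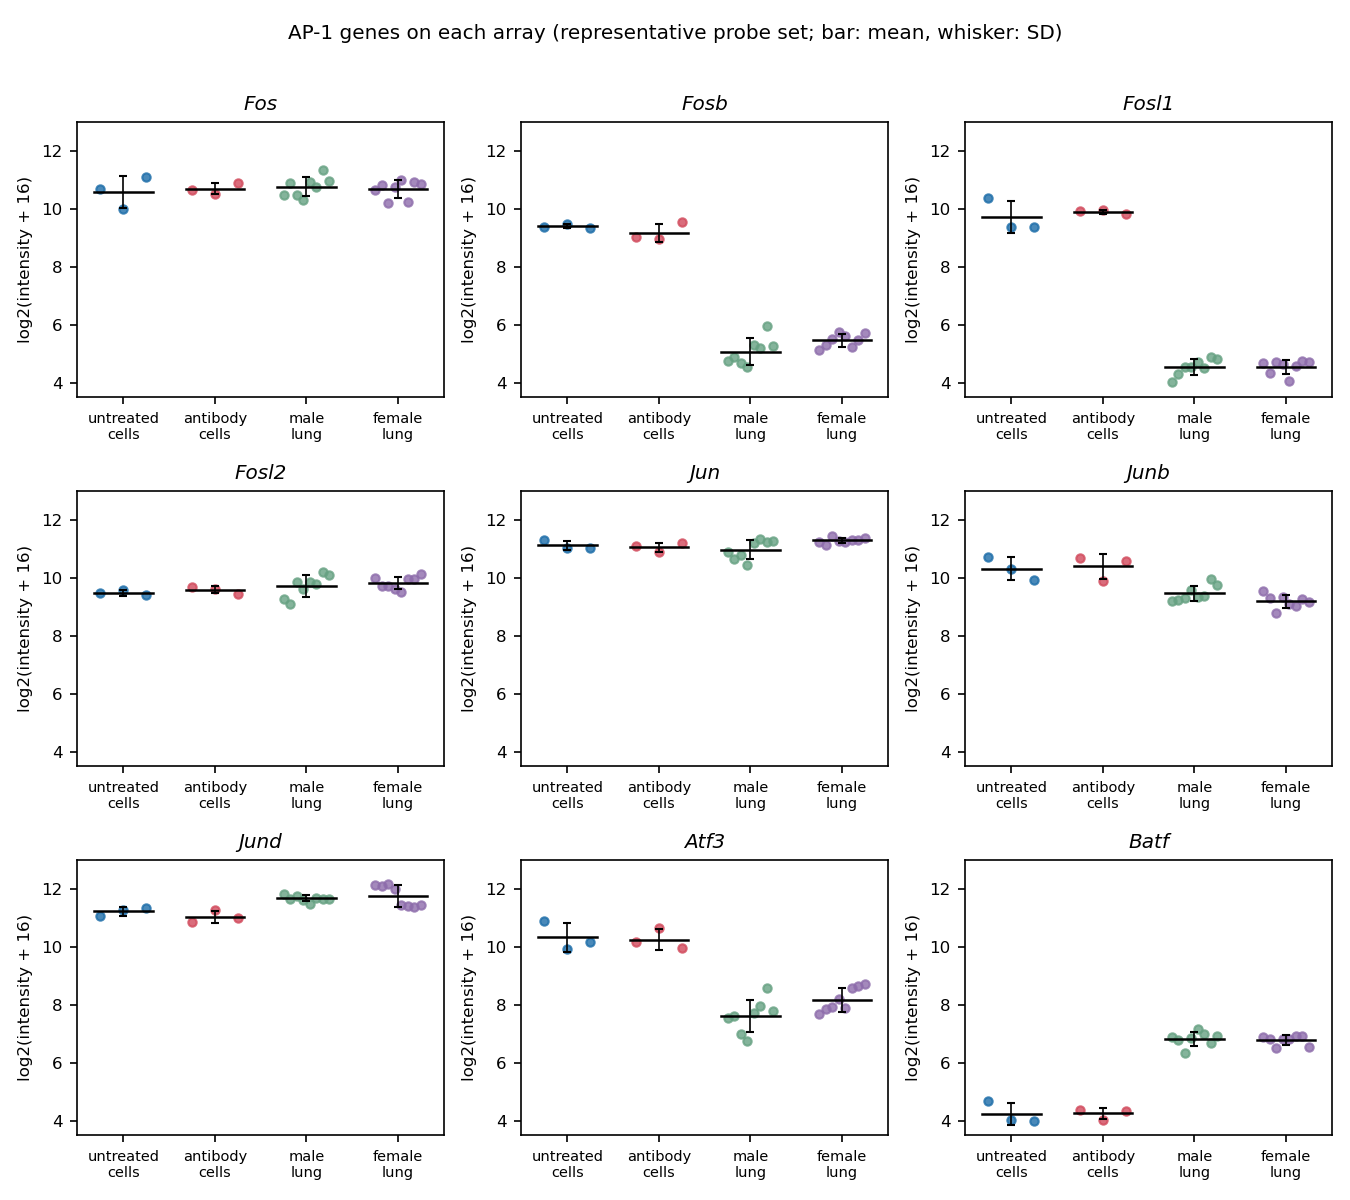
Intensity of the 9 members on each array, as log2(intensity + 16) without normalization between arrays, for the representative probe sets. Points are arrays, bars group means and whiskers SD; on this scale Fosl1, Fosb and Atf3 lie higher on all 6 cell arrays than on all 16 lung arrays, Batf lies lower, and Fos overlaps.

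Fosl1 encodes FRA-1, a Fos protein without the transactivation domain of Fos itself. Its representative probe set (1417487_at, Entrez gene 14283) read 1301, 655 and 654 in untreated cells 1 to 3 and 949, 971 and 884 in antibody-treated cells 1 to 3. Lung read 0.038 to 13.7, with a median of 8.26. Untreated sample 1 was the highest of the cell arrays, and untreated samples 2 and 3 lay below all treated arrays. No cell array overlapped lung. The change in untreated cells against lung was 5.21 ± 0.17 (SE; limma adjusted p = 8.36e-19), and in antibody-treated cells 5.40 ± 0.17 (adjusted p = 4.09e-19). A second probe set (1417488_at) read 398, 168 and 84.3 in untreated cells, 265, 97.5 and 307 in treated cells, and 1.13 to 13.4 in lung. It agreed in direction with a wider spread within the cells, and changed by 3.22 ± 0.25 (adjusted p = 1.62e-11) and 3.36 ± 0.25 (adjusted p = 7.36e-12). Both sets lay under the 40th percentile on every lung array, so the size of the fold rests on the added offset. With an offset of 1 the untreated change was 6.94 and 4.71, and with 64 it was 3.65 and 1.92.

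Fosb encodes a full-length activator and, by splicing, the short form known as delta-FosB, which these values do not separate. Its single probe set (1422134_at, Entrez gene 14282) read 641, 699.9 and 635 in untreated cells and 507, 479.8 and 723 in antibody-treated cells. Lung read 7.22 to 46.6, with a median of 22.8. The untreated arrays lay close together, the treated arrays straddled them, and all 6 exceeded every lung array. The change was 4.21 ± 0.19 (SE; adjusted p = 8.06e-16) in untreated and 4.00 ± 0.19 (adjusted p = 2.21e-15) in treated cells. With offsets of 1 and 64 the untreated change was 4.99 and 3.10.

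Fos, the founding member of the family, was not called in either cell group against lung. Its probe set (1423100_at, Entrez gene 14281) read 1620.2, 1001 and 2183 in untreated cells and 1598, 1447 and 1892 in treated cells, against 1158 to 2551 in lung with a median of 1771. Untreated cells held the lowest value of all arrays, and the groups overlapped. The change was -0.18 with a 95% interval from -0.58 to 0.22 (adjusted p = 0.388) in untreated cells, and -0.07 with an interval from -0.46 to 0.33 (adjusted p = 0.761) in treated cells. With median centring these values were 0.14 and 0.24. Both intervals exclude a 2-fold difference, and differences within them were not detectable.

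Fosl2 encodes FRA-2, the second Fos protein without that domain. Its representative set (1437247_at, Entrez gene 14284) read 697, 757 and 656 in untreated cells, 812, 777 and 687 in treated cells, and 533 to 1153 in lung with a median of 893. The cell arrays fell inside the range of lung, and the change was -0.26 ± 0.15 (SE; adjusted p = 0.110) in untreated and -0.16 ± 0.15 (adjusted p = 0.343) in treated cells. The dimmer set (1422931_at) pointed the other way, with 89.9, 66.2 and 58.4 in untreated cells, 65.8, 85.0 and 54.4 in treated cells and 31.1 to 70.5 in lung. Its changes of 0.83 ± 0.16 (adjusted p = 4.72e-05) and 0.77 ± 0.16 (adjusted p = 0.000121) passed on the adjusted p but not on the 2-fold rule. It would pass that rule in untreated cells with an offset of 1, at 1.04. The mean of both sets turned the direction, to 0.28 and 0.30 in the 2 cell groups.

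Jun, the partner that lets Fos proteins bind DNA, gave different readings from its 2 probe sets. The representative set (1417409_at, Entrez gene 16476) read 2504, 2080.5 and 2066 in untreated cells, 2183, 1871 and 2318 in treated cells, and 1371 to 2802 in lung with a median of 2404. Cells and lung overlapped, and the change was -0.08 ± 0.12 (SE; adjusted p = 0.526) in untreated and -0.11 ± 0.12 (adjusted p = 0.393) in treated cells, which turned to 0.26 and 0.20 with median centring. The second set (1448694_at) read 653, 684 and 681 in untreated cells, 622, 549.5 and 817 in treated cells, and 1448 to 2888 in lung with a median of 2279.7. Here every cell array lay below every lung array, and the changes were -1.69 ± 0.13 (adjusted p = 2.91e-11) and -1.71 ± 0.13 (adjusted p = 2.35e-11), called lower in both cell groups. The mean of both sets gave -0.89 and -0.91. Which part of the transcript each set reads was not analysed here, so no level of Jun in the cells against lung is stated.

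**Figure D2:**
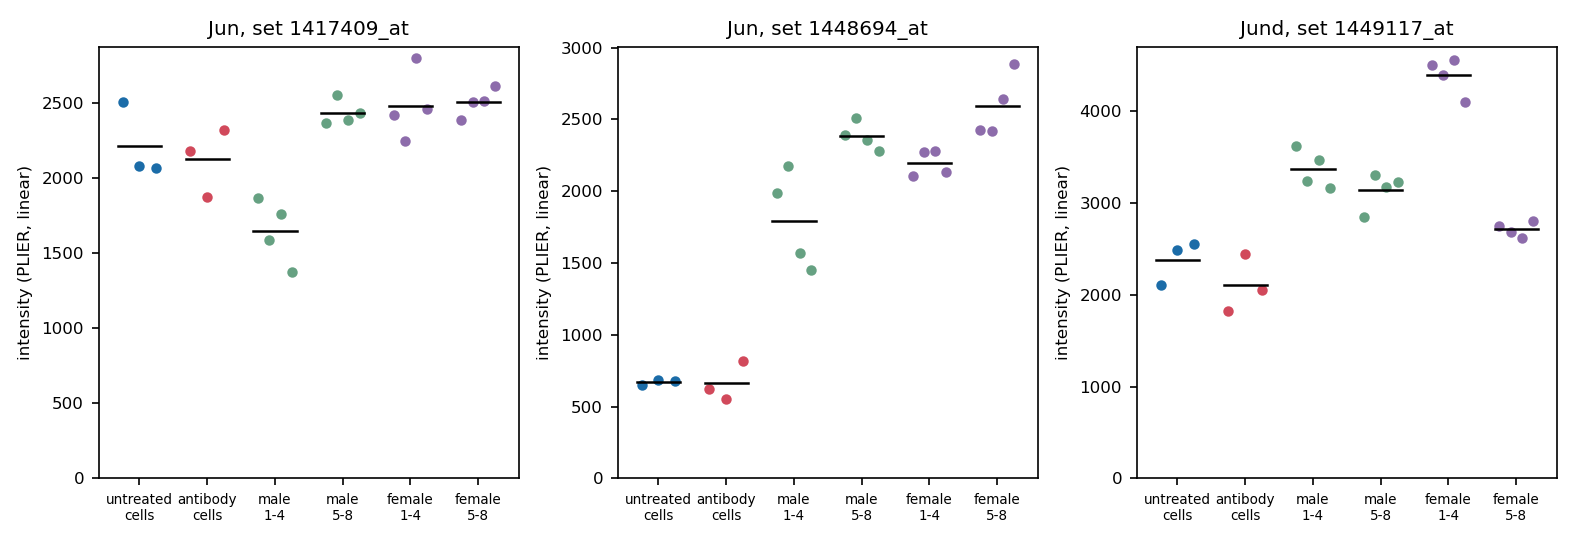
PLIER intensity of both Jun probe sets and of the representative Jund set on each array, with lung arrays numbered 1 to 4 and 5 to 8 shown apart and bars at group means. The left Jun panel overlaps between cells and lung, and the middle panel has all 6 cell arrays at 549.5 to 817 under every lung array. In lung, Jund runs from 2623 in female lung 5 to 8 up to 4565 in female lung 1 to 4. All 6 cell arrays lie below the lung arrays in Jund.

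Junb encodes a Jun protein that often restrains Jun. Its probe set (1415899_at, Entrez gene 16477) read 1681, 1261 and 946 in untreated cells and 1638, 941 and 1531 in treated cells, against 431 to 974 in lung with a median of 614. Untreated sample 3 and treated sample 2 fell into the upper end of lung, and the remaining cell arrays lay above it. After normalization all 6 cell arrays lay above lung. The change was 0.98 ± 0.16 (SE; adjusted p = 7.76e-06) in untreated cells, just short of 2-fold, and 1.08 ± 0.16 (adjusted p = 2.05e-06) in treated cells, where it was called. These changes differ by less than either SE. The call changed with single choices: in untreated cells Junb passed without untreated sample 3 (1.17) and with median centring (1.26), and in treated cells it did not pass without treated sample 1 (0.93).

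Jund, the Jun gene known for a more steady expression than Jun and Junb, read lower in the cells, by less than 2-fold. Its representative set (1449117_at, Entrez gene 16478) read 2113, 2488 and 2556 in untreated cells and 1819.8, 2446 and 2050.2 in treated cells, against 2623 to 4565 in lung with a median of 3232. All 6 cell arrays lay below all 16 lung arrays, though untreated sample 3 came close to the lowest lung. The change was -0.55 ± 0.14 (SE; adjusted p = 0.000784) in untreated and -0.71 ± 0.14 (adjusted p = 5.38e-05) in treated cells, under the 2-fold rule in both. With median centring the changes were -0.22 and -0.40. Against lung arrays 1 to 4 alone the untreated change was -0.74, and against arrays 5 to 8 it was -0.37. A second Jund set (1440265_at) read 10.0 to 24.2 in untreated cells, 11.6 to 19.3 in treated cells and 20.6 to 32.1 in lung, and was too dim to be tested.

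Atf3, a stress-induced bZIP factor that can pair with Jun proteins, was higher in the cells. Its probe set (1449363_at, Entrez gene 11910) read 1900.5, 959.5 and 1128 in untreated cells and 1121, 1593 and 971 in treated cells. Lung read 90.9 to 401, with a median of 217. The cell arrays lay above every lung array, and the SD within untreated cells (502) and treated cells (325) exceeded the difference between their means of 1329 and 1229. The change was 2.46 ± 0.26 (SE; adjusted p = 4.74e-09) in untreated and 2.42 ± 0.26 (adjusted p = 6.62e-09) in treated cells. Against lung arrays 1 to 4 the untreated change was 2.75, and against arrays 5 to 8 it was 2.18.

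Batf was the only member gene called lower on its representative set. Its probe set (1419410_at, Entrez gene 53314) read 9.54, 0.0793 and 0.0127 in untreated cells and 4.84, 0.310 and 4.27 in treated cells. Lung read 63.9 to 126, with a median of 98.3. Every cell array lay under its 40th percentile, and lung lay above its own on all 16 arrays. The log2 change was -2.43 ± 0.15 (SE; adjusted p = 3.35e-13) in untreated and -2.40 ± 0.15 (adjusted p = 4.43e-13) in treated cells. Its size rests on the offset, with -5.05 and -1.18 in untreated cells for offsets of 1 and 64. Lymphocyte markers were also lower in the cells, as were the summed markers of every other lung cell type listed. Single markers did not all follow these sums. The fibroblast marker Col1a1 was called higher in untreated (1.16) and treated cells (1.10). Col1a2, Col3a1, Krt19 and Pdpn were called in neither cell group. Macrophage markers, for example, summed to 450 to 732 in the cells and 7824 to 14276 in lung. The summed intensity of 5 T cell markers (Cd3e, Cd3d, Cd3g, Lat, Thy1) ran from 28.2 to 34.6 in the cells and from 699 to 1518 in lung, with 4 of the 5 under the 40th percentile on all 6 cell arrays. For the 4 B cell markers named on the array the sums were 14.9 to 35.1 and 5279 to 12086, with all 4 under that percentile on the cell arrays. The part of these cells in the Batf result was not tested.

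**Figure D3:**
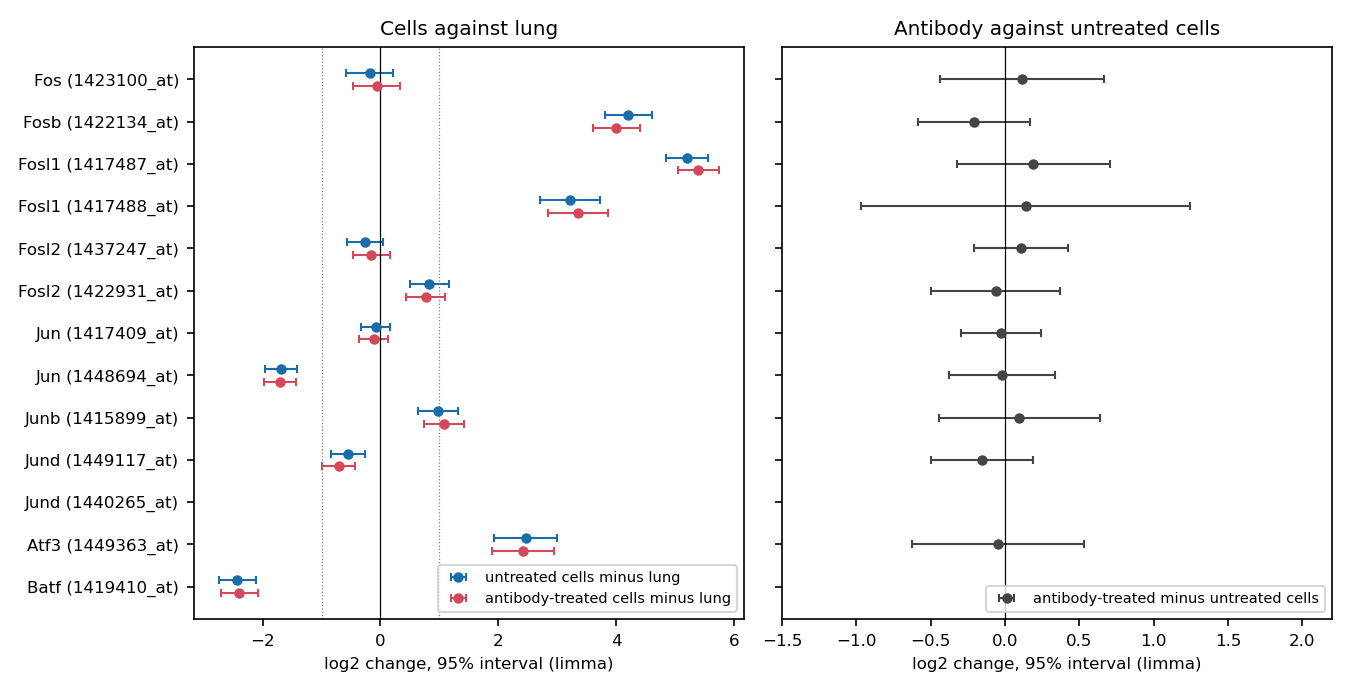
Log2 changes of the member probe sets with 95% intervals from limma, on the left for both cell groups against lung (dotted lines at a 2-fold change) and on the right for antibody-treated against untreated cells. On the left Fosl1, Fosb and Atf3 lie right of 1 and Batf and the second Jun set left of -1; on the right every interval of the 11 sets tested spans 0.

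Treated cells were set against the same 16 lung arrays, so both comparisons share them. Over all probe sets 6411 were higher and 6343 lower, against 4999 and 7407 without normalization and 7216 and 5823 with median centring. Of the 12 member sets tested, 5 were higher and 2 lower, where 19.8% of all probe sets were higher and 19.6% lower. By representative set, 4 of 9 genes were higher and 1 lower, where 17.2% and 23.9% of all genes were. The added gene was Junb, whose call turned on treated sample 1 as given above. The 9 genes had a median change of -0.065, beside -0.011 over all genes. The calls did not move without the arrays labelled male 3 and 4: 4 higher and 2 lower in untreated and 5 higher and 2 lower in treated cells, with Atf3 at 2.35 and 2.30 and Fosb at 4.13 and 3.93 in turn.

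Against untreated cells, no AP-1 member passed the test, and the groups overlapped for each. Of the 11 member probe sets tested 0 were called by limma, where 0.0109% of all sets were called (3 of 27499, with 331 at an unadjusted p under 0.05). All 11 had an adjusted p of 0.999917, and 0 of them had an unadjusted p under 0.05. The differences ran from -0.21 for Fosb (95% interval -0.58 to 0.17) to 0.19 for Fosl1 (-0.32 to 0.71). Fos differed by 0.12 (-0.44 to 0.67), Junb by 0.10 (-0.44 to 0.64), Atf3 by -0.05 (-0.63 to 0.53) and Jund by -0.16 (-0.50 to 0.19). The 2 Jun sets differed by -0.03 (-0.30 to 0.24) and -0.02 (-0.38 to 0.34), and the Fosl2 sets by 0.11 and -0.06. These intervals lie within a 2-fold change either way, except that of the second Fosl1 set at 0.14 (-0.97 to 1.25). A p that misses the threshold does not show that the groups are alike, and differences inside these intervals were not detectable with 3 arrays a group. Batf was too dim in both cell groups to be tested. Leaving out single cell arrays called 0 of the 11 sets each time.

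The lung group pools 2 labels, male and female, and the members were compared between them. Of the 10 member sets tested 0 passed limma, where 0.108% of all sets passed (32 of 29538, with 2974 at an unadjusted p under 0.05). The smallest adjusted p among the members was 0.250 for Jun, at 0.33 ± 0.10 (SE) higher in female lung. Atf3 stood at 0.57 ± 0.21 (adjusted p = 0.344), Fosb at 0.36 ± 0.16 (adjusted p = 0.473) and Junb at -0.27 ± 0.11 (adjusted p = 0.446). Without the arrays labelled male 3 and 4 these were 0.22 for Jun, 0.34 for Atf3, 0.20 for Fosb and -0.26 for Junb, and 0 passed. The Fosl1 sets and the second Jund set were too dim in lung to be tested.

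The lung arrays numbered 1 to 4 and 5 to 8 in each sex stood apart, a division seen after the values were known and named as no batch in the labels. The Actb control sets show it: the 5′ set read 6986 to 9170 on arrays 1 to 4 and 5263 to 6154 on arrays 5 to 8, and 885 of 29538 probe sets (3.0%) did not overlap between these sets of arrays. Jund read 4506, 4396, 4565 and 4108 in female lung 1 to 4 and 2623 to 2804 in female lung 5 to 8. Male lung read 3162 to 3627 on arrays 1 to 4 and 2849 to 3311 on arrays 5 to 8. So female lung lay above male lung on arrays 1 to 4 and below it on arrays 5 to 8. Neither set of arrays had an overlap in Jund, a pattern that was not counted over all probe sets. Female minus male was 0.37 ± 0.07 (SE; limma adjusted p = 0.0321) on arrays 1 to 4 and -0.15 ± 0.05 on arrays 5 to 8, where Jund was not called. Jun was 0.55 ± 0.11 higher in female lung on arrays 1 to 4 (adjusted p = 0.0416), with male lung at 1371 to 1868 and female lung at 2247 to 2802, and 0.11 ± 0.05 on arrays 5 to 8. These were the 2 of 10 member sets called on arrays 1 to 4, where 1% of all sets were called, and 0 were called on arrays 5 to 8, where 0.775% were. Fosb in male lung read 7.22 to 13.8 on arrays 1 to 4 and 20.4 to 46.6 on arrays 5 to 8, while female lung read 19.3 to 37.2 and 21.1 to 36.4. The arrays labelled male 3 and 4, with Xist and Uty in the female range, are both among male 1 to 4. Because the division was seen after the values were known, the adjusted p-values and calls within it are descriptive only. What the division stands for was not tested.

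Whether the other members rose and fell with Fos across the 16 lungs was asked with 8 correlations, on representative sets and with 100000 permutations, two-sided. 0 of the 8 passed after adjustment over the 8 pairs. Fosb had Pearson r = 0.56 (permutation p = 0.0240, adjusted p = 0.192) and Spearman rho = 0.50 (permutation p = 0.0526). Junb had r = 0.48 (permutation p = 0.0609, adjusted p = 0.244) and rho = 0.38 (permutation p = 0.151). Atf3 had r = 0.39 (permutation p = 0.138, adjusted p = 0.368) and rho = 0.29 (permutation p = 0.282). The other 5 lay between -0.22 for Jund and 0.22 for Jun, with adjusted permutation p from 0.655 to 0.691. The 2 arrays farthest from the median of Fos were female 3 and female 6, at 1158 and 1191. Without them r was 0.79 for Fosb (adjusted permutation p = 0.00632), 0.74 for Atf3 (adjusted permutation p = 0.00976) and 0.20 for Junb. The ranks of Fosb and Atf3 gave rho = 0.66 each (adjusted permutation p = 0.0504), so the passing values rest on which lungs are used and on the measure.

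By label, the 8 male lungs had r = 0.85 for Fosb (exact permutation p = 0.00747, adjusted p = 0.0299; rho = 0.83) and 0.91 for Atf3 (exact permutation p = 0.00062, adjusted p = 0.00496; rho = 0.93). The 8 female lungs had 0.44 and 0.0046, and the difference between the labels was not tested. The 8 male lungs include the arrays labelled male 3 and 4, which had the lowest Atf3 readings of all lungs (110 and 90.9). The r in male lung without these arrays was not computed. Within arrays 1 to 4 r was 0.20 for Fosb and 0.46 for Atf3, and within arrays 5 to 8 it was 0.76 and -0.02, and 0 of these 4 passed. The lungs of arrays 1 to 4 hold the lower Fosb and Atf3 readings in male lung, so the male values and the division of the arrays move together. Without the arrays labelled male 3 and 4, r over 14 lungs was 0.42 for Fosb, 0.68 for Junb (adjusted permutation p = 0.0634) and 0.14 for Atf3.

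**Figure D4:**
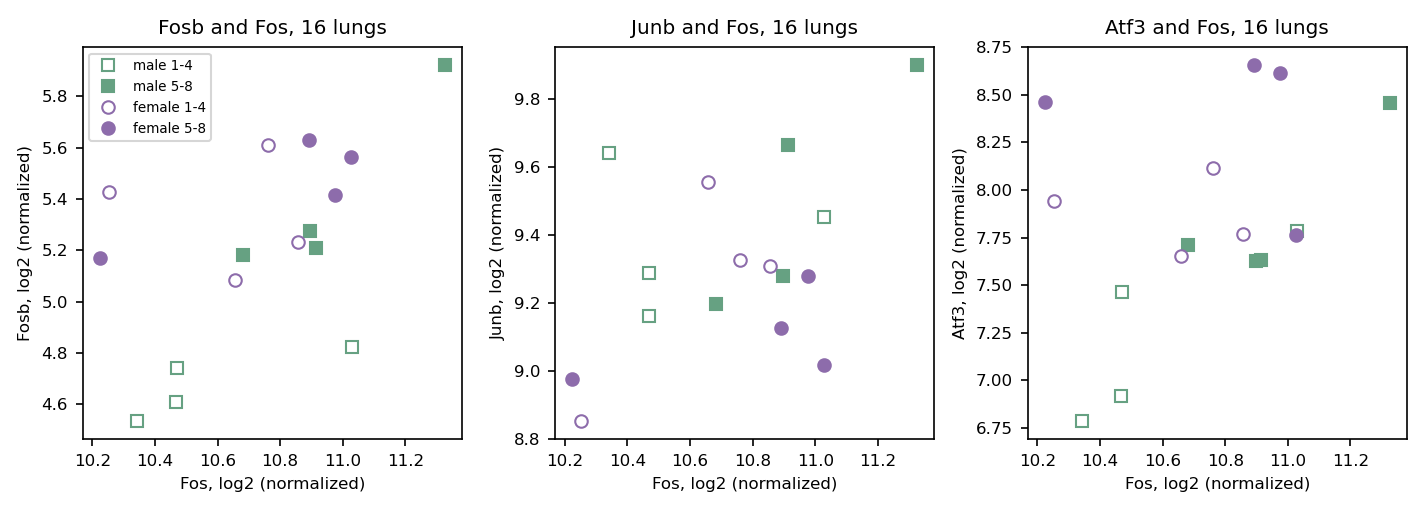
Fosb, Junb and Atf3 against Fos on the 16 lung arrays, both axes in normalized log2 units, squares male and circles female, open for arrays 1 to 4 and filled for 5 to 8. The 4 open squares hold the lowest Fosb values, and the 2 circles at the lowest Fos are the arrays that moved r from 0.56 to 0.79 for Fosb.

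Genes whose patterns were most like a member's were listed by Pearson r over 14391 genes tested in lung, as a description with no p. For Fos over the 16 lungs these were Csf1r (0.81), the macrophage growth factor receptor, Muc16 (0.78), Zfp36 (0.75), which encodes an mRNA decay protein and is itself an early response gene, Cacna2d2 (0.75) and Dhx35 (0.74). For Jund they were Nf1 (0.98), the neurofibromin gene, Anpep (0.94), Maz (0.94), Bcat2 (0.94) and Cox4i2 (0.94). These points include the gap between female lung 1 to 4 and 5 to 8 given above for Jund. For Batf they were Me3 (0.79), Ftsj1 (0.78), Lpin3 (0.78), Ddx24 (0.74) and Arfip2 (0.73). For Fosl1 over the 6 cell arrays and 12710 genes they were Exosc1, Plagl2, Zwint, Mybbp1a and Slc25a25, with r from 0.987 to 0.995. Picking the top of so many genes itself raises r, most of all with 6 arrays, where such values can arise by chance. The highest Fosl1 point in these is untreated sample 1.

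Early response genes outside the family changed in both directions. Of 32 such genes tested in untreated cells against lung, 10 were higher, 11 lower and 11 not called, with a median change of 0.23. Egr3, a zinc finger factor, read 79.6 ± 28.8 (SD, n = 16) in lung and 1387 ± 245 (SD, n = 3) in untreated cells, a rise of 3.95 ± 0.24 (SE), and its relative Egr2 rose by 3.39 ± 0.25. A second Egr3 probe set did not pass (-0.13). Myc rose by 3.46 ± 0.21, and whether its probe set also reads the c-myc transgene was not tested. Klf2, a factor abundant in endothelium and lymphocytes, fell by 4.14 on the log2 scale, from 3216 ± 507 (SD, n = 16) to 145 ± 6.98 (SD, n = 3). Endothelial markers were also lower in the cells, with sums of 46.4 to 79.6 against 7923 to 15307 in lung. Of these 5 markers, 4 lay under the 40th percentile on all cell arrays, and their part in the Klf2 change was not tested.

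Genes known as AP-1 targets included strong rises. Of 26 tested in untreated cells against lung, 11 were higher, 4 lower and 11 not called, with a median of 0.79. Of all genes 17.8% were called higher and 23.8% lower, and the list was drawn up with earlier results of these data known. The chemokine gene Ccl2 rose by 6.65 ± 0.26 (SE), the cytokine gene Il6 by 3.98 ± 0.37 and Timp1, an inhibitor of matrix proteases, by 3.42 ± 0.19. Il6 read 306 to 1240.2 in untreated cells and 176 to 1315 in treated cells, against a mean of 20.1 in lung. The urokinase gene Plau stood at 6.57 ± 0.87 on its representative set, while its second set stood at 0.18 ± 0.09. In treated cells 10 of 25 were higher and 4 lower, where 17.2% and 23.9% of all genes were.

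Of 24 other bZIP genes, which encode possible dimer partners, 5 were higher, 5 lower and 14 not called, with a median of -0.27. Ddit3, the stress factor CHOP, rose by 2.14 ± 0.23 (SE). Mafg, a small Maf gene, rose by 2.14 ± 0.18 on its representative set while a second set stood at 0.64 and was not called. Cebpa, a differentiation factor of lung epithelium and myeloid cells, changed by -4.85 ± 0.21, from 1535 ± 515 (SD, n = 16) to 31.9 ± 15.5 (SD, n = 3). Bach2, a transcriptional repressor that acts in lymphocytes, changed by -3.23 ± 0.13. Its other sets stood at -3.93 and 0.74, the last of which was not called. The B and T cell and alveolar type 2 markers given earlier were also lower in the cells, and their part in the Cebpa and Bach2 changes was not tested.

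Of 25 kinases and factors that act on AP-1 genes, 3 were higher, 7 lower and 15 not called, with a median of 0.11. Map2k6, a kinase of the p38 branch, rose by 1.76 ± 0.16 (SE). Mef2a changed by -2.11 ± 0.08 and the JNK pathway kinase gene Map3k1 by -1.97 ± 0.17, while a dimmer set of each stood at -0.58 and -0.42 and was not called. Mef2c was listed near 0 in untreated cells (mean 0.0041) against 408 ± 68.8 (SD, n = 16) in lung. Of 16 genes of AP-1 protein turnover and restraint, 3 were higher, 4 lower and 9 not called, with a median of -0.42. The phosphatase gene Dusp4 rose by 2.69 ± 0.18, while its relatives Dusp1, which acts on JNK and p38, and Dusp16 changed by -2.45 ± 0.12 and -1.85 ± 0.14. A dimmer Dusp16 set stood at -0.55 and was not called. Fbxw7, whose ubiquitin ligase product marks Jun for degradation, changed by -1.51 ± 0.09 and -1.85 ± 0.17 on its 2 sets.

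For these 5 lists the median over all genes was 0.011, and 17.8% of all genes were called higher and 23.8% lower, as a background that stands beside each of these counts. In treated cells against lung the lists gave 9 higher and 11 lower early response genes, 5 and 6 other bZIP genes, 2 and 7 kinases and factors, and 3 and 4 turnover genes. Between treated and untreated cells 0 genes of any list were called, where 0.0157% of all genes were. In each list the 2 genes with the largest differences are named, all with a limma adjusted p of 0.999917. They were Ptgs2 (0.29 ± 0.67, SE) and Klf2 (-0.27 ± 0.21), Plau (-1.49 ± 1.86) and Mmp10 (0.45 ± 0.88), Cebpa (0.42 ± 0.27) and Nfil3 (-0.17 ± 0.19), Map2k6 (-0.36 ± 0.20) and Map2k3 (0.20 ± 0.13), and Zfp36 (0.23 ± 0.19) and Cop1 (-0.14 ± 0.17). For Plau the log2 difference is negative while the mean intensity is higher in treated cells (7720.5 against 4655), because a treated array read 17.3 and another 13383.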

How the data were processed

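RNA from the sorted cells and from lung (200 ng a sample, per the labels' protocols) was hybridised to 1-colour Affymetrix arrays. The deposited values are PLIER intensities on a linear scale, per the submitters' processing notes, whose version, settings and scaling are not given in the sources used here. From these, 64 control probe sets were left out, leaving 45037, of which 34945 had 1 gene symbol, 932 several and 9160 were not listed. Values became log2(intensity + 16) and were quantile normalized. Probe sets that exceeded their array's 40th percentile on 3 or more of the arrays compared were tested with limma 3.58.1 in R 4.3.3 (lmFit, eBayes with an intensity trend), and p-values were Benjamini-Hochberg adjusted over all tested. The fit held all 4 groups (22 arrays) for cells against the mean of male and female lung, the 6 cell arrays for the antibody, and the 16 lung arrays for the sexes. Each gene's representative is its brightest set on average, with sets marked as cross-hybridising passed over where another is listed. Correlations used scipy 1.17.1 in Python 3.11.15.

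Members, lists and tests were chosen with earlier results of these data known. Named genes were, by rule, all members, up to 4 genes of each list with the largest called change in untreated cells against lung, the 2 with the largest antibody difference, and the 5 most like Fos, Jund, Batf and Fosl1. The fit was tested on simulated data. The number of arrays limits the precision. Alternatives varied the offset, normalization, filter, summary per gene, variance model, array weights, replicate block, samples and lung arrays.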

Additional observations from a re-analysis of the deposited data

Results flagged for a closer look

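Jund (probe set 1449117_at) differed between female and male lung in opposite directions in the lung arrays numbered 1 to 4 and 5 to 8. Female minus male was 0.37 on the log2 scale on arrays 1 to 4, with all 4 female arrays (4108 to 4565) above all 4 male arrays (3162 to 3627). It was -0.15 on arrays 5 to 8, with all 4 female arrays (2623 to 2804) below all 4 male arrays (2849 to 3311). Jun set 1417409_at, Fosb and Atf3 also had no overlap on arrays 1 to 4, nor had Junb and the second Jund set on arrays 5 to 8. How many of all probe sets part in this way was not counted. The arrays labelled male 3 and 4, with Xist and Uty in the female range, are among male 1 to 4. The difference between the sets of arrays was not tested, and the division was noticed after the values were seen. Of the 26 groups of a member probe set and a lung label, 0 had an array apart from the other 7 on the log2 scale by Dixon's criterion (0.526 for 8 arrays), which chance passes in about 1 of 20 groups. On the linear scale male lung 7 stood farther off in Fosb, at 46.6 with the next array at 23.1.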

How the results depend on the processing

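Member changes were recomputed under each alternative, giving 777 values, of which 732 kept direction and call. In 38 the sign turned, and 0 of these belonged to a change whose reported adjusted p is under 0.05. The call turned in 7: Junb in untreated cells, called with median centring (1.26), a replicate block (1.02) and without untreated sample 3 (1.17), and in treated cells, not called without treated sample 1 (0.93), Fosl2 set 1422931_at, called with an offset of 1 (1.04), and Jun (0.55) and Jund (0.37) between the sexes on lung arrays 1 to 4 alone. In untreated cells against lung the sign turned for Jun set 1417409_at with median centring (0.26), a replicate block (0.014) and lung arrays 1 to 4 alone (0.058), for Fos with median centring (0.14) and without untreated sample 2 (0.089, in a range from -0.44 when single arrays are left out), and for Fosl2 with the mean of its sets (0.28). In treated cells it turned for the same Jun set with median centring (0.20) and arrays 1 to 4 (0.029), for Fos with median centring (0.24), a replicate block (0.048), arrays 1 to 4 (0.066) and without treated sample 2 (0.0062), and for Fosl2 with median centring (0.093) and the mean of its sets (0.30). The Fosl2 means had adjusted p of 0.0258 and 0.0171, under 2-fold. Between treated and untreated cells array weights turned Jun set 1417409_at (0.023) and Atf3 (0.010). Leaving out single cell arrays there gave -0.089 to 0.32 for Junb, -0.076 to 0.042 for Jun set 1417409_at, -0.16 to 0.079 for Jun set 1448694_at, -0.30 to 0.63 for Fosl1 set 1417488_at, -0.21 to 0.086 for Fosl2 set 1422931_at, -0.15 to 0.38 for Fos and -0.25 to 0.20 for Atf3. Between the sexes it turned for Fosl2 on arrays 5 to 8 (-0.077 and -0.045), for Fos on arrays 1 to 4 (0.055), and for Jund on arrays 5 to 8 (-0.15) and with the mean of its sets (-0.011). Counts over all probe sets moved more. Untreated cells against lung gave 12944 calls, against 7993 with an offset of 64, 6315 with 1 set per gene and 5347 with the mean of a gene's sets, where fewer features are tested. Treated cells against lung gave 12754, against 7889, 6226 and 5286. Treated against untreated cells gave 3, against 5 with an offset of 64, 6 with array weights, 10 with all 22 arrays in the fit, and 3 to 11 when single cell arrays were left out. Female against male lung gave 32, against 19 with an offset of 1, 9 with no filter, 7 with 1 set per gene, 10 with the mean of sets, 7 with no variance trend, 118 with array weights and 58 without male 3 and 4. Chosen after seeing the data, the set of lung arrays as a block gave 78, arrays 1 to 4 alone 296 and arrays 5 to 8 alone 229. The causes were not tested. Same-numbered cell samples did not deviate together (correlations 0.038, -0.17 and -0.011), beside -0.13 to 0.17 for differently numbered samples. The labels do not say whether the same number marks a shared culture or sort, and 3 arrays a group cannot decide it. A replicate block gave 13052, 12928, 3 and 1 calls in these 4 comparisons. Correlations with Fos turned sign in 12 of 80 recomputed values, and 0 of these passed: without male 3 and 4 Jun (-0.16), without the 2 farthest lungs Batf (-0.0058), in female lung Jun (-0.34), Fosl1 (-0.37) and Fosl2 (-0.19), on arrays 1 to 4 Fosl1 (-0.31), Fosl2 (-0.28) and Jund (0.094), and on arrays 5 to 8 Jun (-0.21), Batf (-0.25), Jund (0.40) and Atf3 (-0.017). The value of r rose to 0.79 for Fosb and 0.74 for Atf3 without the 2 farthest lungs, and to 0.85 and 0.91 in male lung. Fosl1 in lung and Batf in the cells are near background, which limits their folds.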
